A study of Mus musculus with 2 samples.

Results

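The Fc receptors for IgG are the cell surface molecules through which white blood cells recognise antibody bound to a target. Members were taken by name from the array's annotation: Fcgr1, Fcgr3 and Fcgr4, which are activating receptors, Fcgr2b, which is the inhibitory receptor, Fcer1g, the signalling chain, and Fcgrt, the neonatal Fc receptor. Of these 6 genes, 5 had a probe set assigned to that gene alone, and each of the 5 had 1 probe set, so 5 of the 19935 genes measured are described. No probe set was assigned to Fcgrt alone, and it is not analysed here.

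The treated sample was dendritic cells (DCs, which show captured antigen to T cells) cultured with IL-27, a cytokine of the IL-12 family, and its control was DCs cultured with vehicle. Both came from spleens of wild-type C57BL/6 mice 8 weeks old and were isolated by flow cytometry. The treatment lasted for a time labelled "ON", which is not expanded here, and the labels do not give a dose, the number of mice or the sorting markers. Each condition was read on 1 array from total RNA, so differences below are between 2 arrays, without a replicate check, SD or p-value. In bulk RNA, fewer cells of a type and less RNA per cell cannot be told apart.

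The activating receptors bind IgG on immune complexes and signal through Fcer1g, the common FcR gamma chain, whose cytoplasmic tail carries an activation motif (ITAM) that recruits the kinase Syk. Fcgr2b instead carries an inhibitory motif (ITIM) in its own tail, which recruits the lipid phosphatase SHIP1, encoded by Inpp5d. In DCs these receptors take up immune complexes for presentation to T cells, and the balance of activating and inhibitory receptors sets a threshold for maturation by immune complexes.

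All 4 IgG-binding receptors measured were lower on the IL-27 array, Fcgr3, Fcgr4 and Fcgr2b by 3.14-fold to 3.77-fold and Fcgr1 by at least 2.87-fold. The activating receptors had a mean log2 difference of -1.73, beside -1.74 for the inhibitory Fcgr2b. Fcer1g was also dimmer with IL-27 but was short of 2-fold. A gene was called lower or higher by a rule of size. The log2 intensity with IL-27 minus that with vehicle had to reach 1 in either direction, which is 2-fold. The brighter of the arrays also had to reach the median of the whole table, an intensity of 96.2, called the level minimum below. By this rule 4 of the 5 measured members were lower and 0 were higher. Among the 11140 genes that reached the minimum, 1468 (13.2%) were lower and 169 (1.52%) were higher. The share of higher genes among the genes called was 10.3% as deposited, 20.6% after quantile normalization and 36.5% after removal of the level-dependent trend.

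Fcgr1 encodes CD64, the high-affinity IgG receptor of macrophages, monocytes and some DCs. Its probe set, 10500335, had an intensity of 119 with IL-27 and 372 with vehicle. The IL-27 value was within the range of olfactory receptor genes, which are not expected in DCs. The 95th percentile of 1027 such genes was 129 on the IL-27 array and 77.3 on the vehicle array, and this percentile is used below as the olfactory limit. Of those genes, 7.01% were as bright as Fcgr1 on the IL-27 array and 0 were on the vehicle array. Against the olfactory limit Fcgr1 was at least 2.87-fold lower with IL-27, and as deposited its log2 difference was -1.64.

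Fcgr3 encodes CD16, a low-affinity activating receptor that binds immune complexes and is also the main IgG receptor of NK cells. Its probe set, 10360040, had an intensity of 150.0 with IL-27 and 471 with vehicle, which is 3.14-fold lower, a log2 difference of -1.65. On the IL-27 array it was 1.16 times the olfactory limit and thus only a little above it. Fcgr4 encodes CD16-2, an activating receptor of monocytes, macrophages and neutrophils that binds IgG2 subclasses. Its probe set, 10351509, had an intensity of 179 with IL-27 and 675 with vehicle. It was 3.77-fold lower, with a log2 difference of -1.91, the most negative of the 5 members.

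Fcgr2b encodes CD32b, the inhibitory receptor, which is carried by B cells, DCs and macrophages. Its probe set, 10360028, had an intensity of 177 with IL-27 and 591 with vehicle, which is 3.35-fold lower, a log2 difference of -1.74. The IgG-binding parts of Fcgr2b and Fcgr3 are near-identical in sequence, so their probe sets can share signal and each value is uncertain on its own.

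Fcer1g lay above 99.1% of genes with IL-27 and 99.7% with vehicle. Its probe set, 10360070, had an intensity of 2214 with IL-27 and 4254 with vehicle. The log2 difference was -0.94, which is 1.92-fold lower and did not pass the size rule, although it passed with median centring of the arrays, at -1.04.

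**Figure D1:**
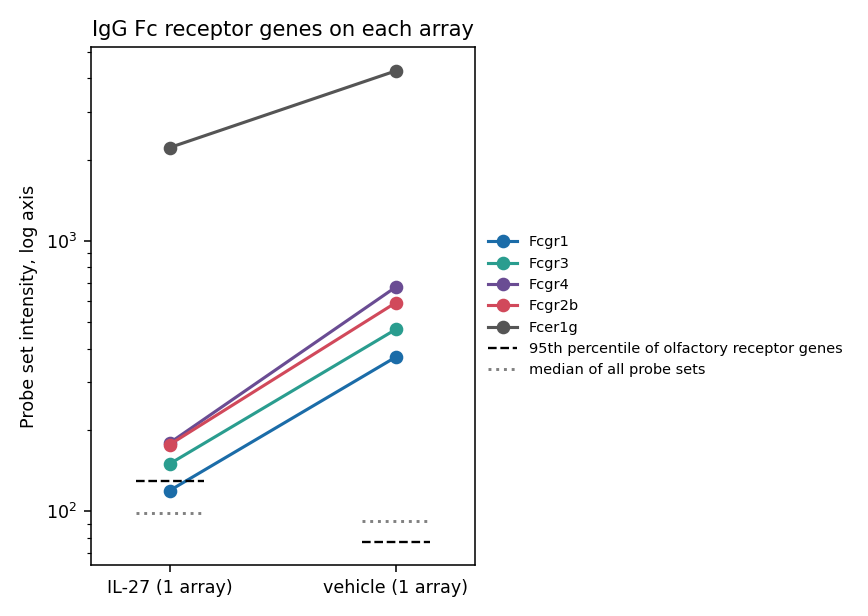
Probe set intensity (log axis) of the 5 measured members on the IL-27 array and the vehicle array, 1 array each, with lines joining a gene's values. Dashed marks give the 95th percentile of olfactory receptor genes on each array (129 with IL-27 and 77.3 with vehicle) and dotted marks the median of all probe sets; Fcgr1 lies under the dashed mark with IL-27, and Fcer1g lies far above it on both arrays.

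Activating receptors were set against the inhibitory one as a difference of log2 differences, since intensities of different probe sets are not on 1 scale. The 3 activating receptors had a mean log2 difference of -1.73 and Fcgr2b had -1.74, so the activating receptors minus Fcgr2b came to 0.0078. Taken singly, that contrast was 0.10 for Fcgr1, 0.09 for Fcgr3 and -0.17 for Fcgr4. With Fcgr1 at its bound the contrast was 0.05. Over normalization, offset, floor and the use of a median it ran from -0.04 to 0.09, and its sign was not fixed. With 1 array per condition there is no interval for this contrast, and the probe sets of Fcgr2b and Fcgr3 can share signal. On the IL-27 array the 4 receptors were also only 0.92 to 1.38 times the olfactory limit, which bounds what the contrast can show. The values therefore do not show that the 2 kinds of receptor moved alike. The 4 IgG-binding receptors spanned 0.27 on the log2 scale. Fcer1g lay 0.79 above the mean of the activating receptors.

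Differences on these arrays depended on level. The median log2 difference was 0.04 over all genes and -0.34 over genes above the level minimum, of which 70.9% were below 0. Each member was therefore set beside the 1000 genes nearest to it in mean log2 level, as a description. The genes nearest to Fcgr1 had a median of -0.51, and 26 of the 1000 (2.6%) had a difference as low as that of Fcgr1. For Fcgr3 the median was -0.56 and 42 genes (4.2%) were as low. The genes nearest to Fcgr4 had a median of -0.54 and 12 of them (1.2%) were as low, and those nearest to Fcgr2b had -0.55 with 19 (1.9%) as low. So the 4 IgG-binding receptors lay 1.09 to 1.37 below their neighbours in level, while 18.0% to 21.7% of those neighbours were themselves lower by 2-fold.

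The genes nearest to Fcer1g had a median of -0.26, and 119 of them (11.9%) were as low. Few genes are as bright as Fcer1g, so its neighbours spread over mean intensities from 841 to 10859. Relative to them the chain lay at -0.68. The activating receptors lay at a mean of -1.20 relative to their neighbours and Fcgr2b at -1.19.

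**Figure D2:**
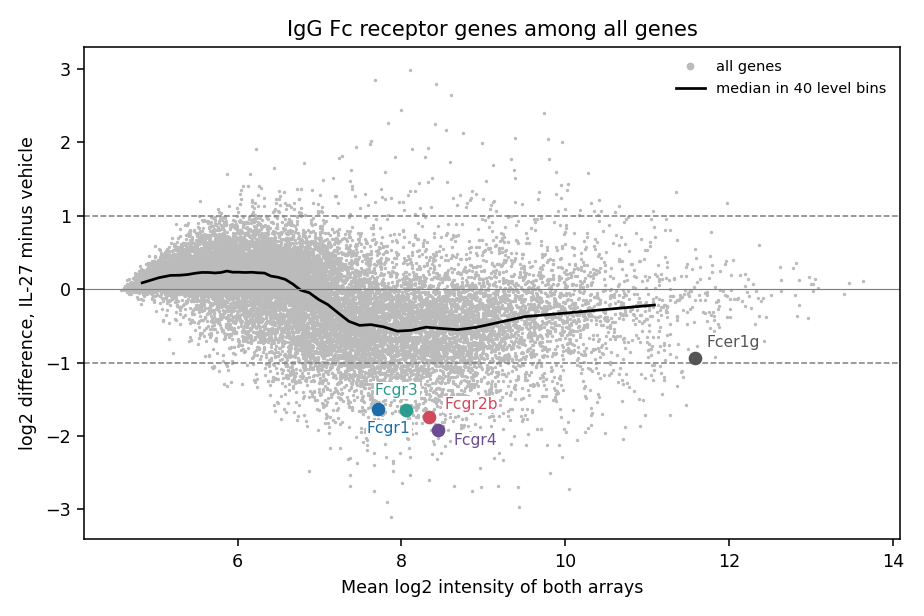
The log2 difference (IL-27 minus vehicle) of each of 19935 genes against its mean log2 intensity over both arrays, with the 5 measured members labelled. The black line is the median in level bins and the dashed lines mark 2-fold; the 4 IgG-binding receptors lie between -1.64 and -1.91, below the line and below the 2-fold mark, and Fcer1g lies at -0.94.

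The 4 receptors stayed lower by the size rule under every normalization tried. With the level trend removed by lowess, Fcgr1 had -1.17, Fcgr3 -1.13, Fcgr4 -1.39 and Fcgr2b -1.21, while 5.33% of genes over the minimum were lower. Quantile normalization gave -1.45, -1.39, -1.63 and -1.45 for the same genes in that order. Fcer1g had -0.79 with the trend removed and -0.86 after quantile normalization, both short of 2-fold. The order of the IgG-binding receptors was not kept across settings. Fcgr4 was the lowest in each, but Fcgr1 and Fcgr3 changed places after quantile normalization and with the trend removed.

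**Figure D3:**
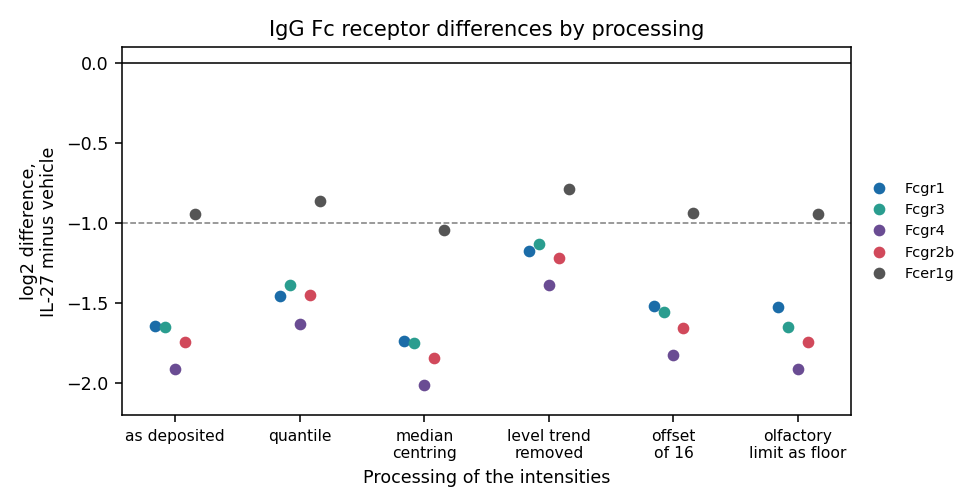
The log2 difference (IL-27 minus vehicle) of the 5 measured members as deposited and under 5 other treatments of the intensities, with the dashed line at 2-fold. The 4 IgG-binding receptors lie below the line in each, the closest being Fcgr3 at -1.13 with the level trend removed, and Fcer1g crosses it with median centring, at -1.04.

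Since the 4 receptors were lower together, their promoter sequences were compared. Of the 6 genes, all had a promoter window in RefSeq (build GRCm38.p6, 250 bases before and 50 after the transcript start). The 250 bases before the start of the activating receptors and of the inhibitory receptor are shown 5′ to 3′ because these are the receptors set against each other above. Capitals mark matches to TTCNNNGAA (the GAS pattern bound by STAT factors), GAAA followed after any 2 bases by another GAAA (a core of the interferon response element) or GAGGAA (a core bound by PU.1, the myeloid factor encoded by Spi1), read on either strand, so that GAGGAA also appears as its complement TTCCTC.
Fcgr1, chr3:96293970-96294219, minus strand: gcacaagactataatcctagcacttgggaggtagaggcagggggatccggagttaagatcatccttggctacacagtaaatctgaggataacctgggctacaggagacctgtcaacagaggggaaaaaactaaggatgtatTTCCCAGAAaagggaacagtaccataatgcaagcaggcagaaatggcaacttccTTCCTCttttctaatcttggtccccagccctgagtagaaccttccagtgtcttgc
Fcgr3, chr1:171059404-171059653, minus strand: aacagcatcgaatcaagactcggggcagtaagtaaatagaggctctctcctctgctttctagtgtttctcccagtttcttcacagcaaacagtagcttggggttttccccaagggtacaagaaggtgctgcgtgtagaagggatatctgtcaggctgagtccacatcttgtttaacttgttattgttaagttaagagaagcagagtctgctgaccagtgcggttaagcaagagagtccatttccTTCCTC
Fcgr4, chr1:171018676-171018925, plus strand: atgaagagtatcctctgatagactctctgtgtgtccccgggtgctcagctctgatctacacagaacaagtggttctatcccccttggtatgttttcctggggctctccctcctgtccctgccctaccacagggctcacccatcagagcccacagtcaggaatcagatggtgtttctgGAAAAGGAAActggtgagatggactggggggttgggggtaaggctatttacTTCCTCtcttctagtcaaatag
Fcgr2b, chr1:170976072-170976321, minus strand: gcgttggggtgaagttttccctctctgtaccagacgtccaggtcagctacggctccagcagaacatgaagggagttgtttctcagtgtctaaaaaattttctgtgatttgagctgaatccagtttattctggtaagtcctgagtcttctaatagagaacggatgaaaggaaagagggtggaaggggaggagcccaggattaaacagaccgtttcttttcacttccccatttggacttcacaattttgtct

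The Fcgr1 window held the GAS pattern as TTCCCAGAA, 109 to 101 bases before the start, and 8.3% of all 32851 promoter windows held a match. The Fcgr4 window held the interferon response core as GAAAAGGAAA, 73 to 64 bases before the start, a pattern in 3.44% of windows. GAGGAA was found in the windows of all 3 activating receptors, at 55 to 50 bases before the start in Fcgr1, 22 to 17 in Fcgr4 and 6 to 1 in Fcgr3 in the window shown, and in 28.3% of all windows. Around it lay the longest run shared by Fcgr1 and Fcgr3, 14 bases, TTCCTTCCTCTTTT, which 5 of the 32851 windows held on either strand. Those 5 include the Fcgr1 window and overlapping windows of Fcgr3. The run was picked because these genes share it and no other pair was searched, so the count does not show that the sharing is unusual. No match to these 3 patterns was found in the windows of Fcgr2b, Fcer1g and Fcgrt. TTGCNNAA, a pattern bound by C/EBP factors that is not marked above, matched in Fcgr3 and Fcgrt and in 10.8% of windows. These are matches of letters and do not show that a factor was bound.

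Fcgr2b, Fcgr4 and Fcgr3 are next to each other on chromosome 1, with Fcer1g a few genes farther on, whereas Fcgr1 is on chromosome 3. The 10 protein-coding genes on either side of this cluster and the 7 between its members were examined to see whether the region as a whole was lower. Of these 27 other genes, 22 were measured and 15 were over the level minimum. Of those 15, 2 were lower and 0 higher, beside 13.2% and 1.52% of all genes at that minimum. The 15 had a median log2 difference of -0.58, beside -0.34 over all genes at that minimum. The lower neighbours were Usp21, a deubiquitinase, at 286 with IL-27 and 734 with vehicle, and Ppox, a haem synthesis enzyme, at 250.4 with IL-27 and 587 with vehicle. Both were short of 2-fold with the level trend removed. Fcrla and Fcrlb, the Fc receptor-like genes just before Fcgr2b, differed by -0.72 and -0.08 at IL-27 intensities under the olfactory limit. Sdhc, a subunit of succinate dehydrogenase located between Fcgr3 and Fcer1g, differed by -0.74, and Apoa2, also between them, by 0.31.

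**Figure D4:**
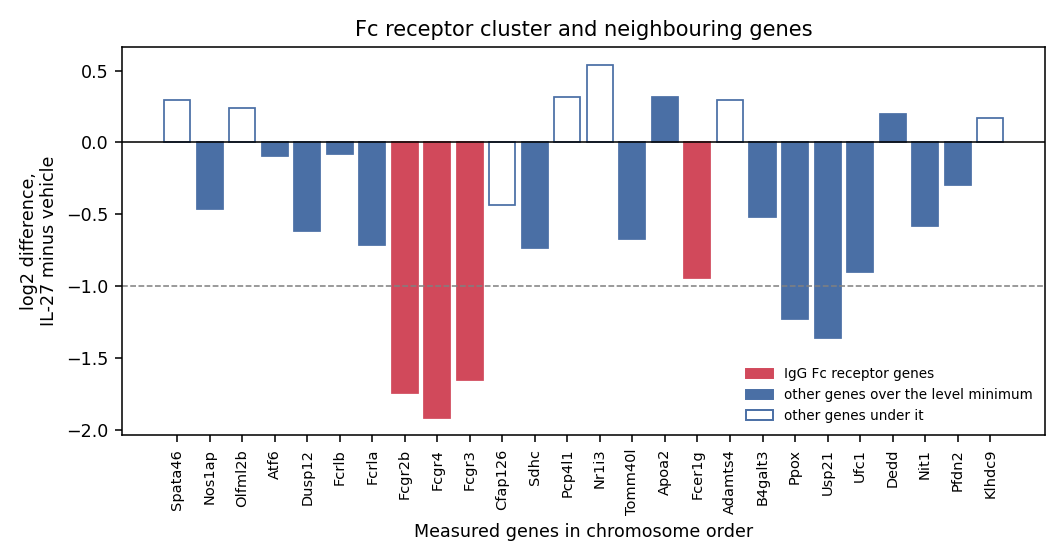
The log2 difference (IL-27 minus vehicle) of the measured protein-coding genes around the Fc receptor cluster of chromosome 1, in chromosome order and not to scale. Red bars are Fc receptor genes, filled blue bars other genes over the level minimum and open bars genes under it; Fcgr2b, Fcgr4 and Fcgr3 pass the dashed 2-fold line and so do Ppox and Usp21.

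Genes that act downstream of the activating receptors were set beside all genes and were not themselves matched for level. By the size rule 5 of 24 measured genes of ITAM signalling were lower and 0 higher, all 24 reached the level minimum, and the median log2 difference was -0.56. This is 20.8%, beside 13.2% of all genes at that minimum. The share was 18.0% to 21.7% of the genes nearest in level to the IgG-binding receptors and 11.2% of those nearest to Fcer1g. With the level trend removed 2 of the 24 were lower, beside 5.33% of all genes at the minimum. The 5 were the phosphoinositide 3-kinase catalytic subunits Pik3cg (364 with IL-27 and 1130 with vehicle, 3.11-fold) and Pik3cd (303 with IL-27 and 928 with vehicle, 3.06-fold), the kinases Btk (2.58-fold) and Fgr (2.49-fold), and Ptprc, the phosphatase CD45 (2.05-fold). Btk, Fgr and Ptprc were short of 2-fold with the level trend removed, at -0.86, -0.89 and -0.82. Syk, the kinase recruited by the Fcer1g tail, had 702 with IL-27 and 1095 with vehicle, a difference of -0.64 that did not pass the size rule. Fyn, a Src-family kinase, had 1284 with IL-27 and 680 with vehicle, a difference of 0.92, and passed 2-fold as higher after quantile normalization (1.14) and with the trend removed (1.28). Lyn, another Src-family kinase of this pathway, had no probe set of its own and is not analysed here.

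Of 10 measured genes of ITIM signalling 1 (10%) was lower and 0 higher, beside 13.2% and 1.52% of all genes at the level minimum. The median was -0.42. The lower gene was Csk, the kinase that holds Src-family kinases inactive, at 495 with IL-27 and 1089 with vehicle (2.20-fold, but -0.73 on the log2 scale with the level trend removed). Inpp5d, the phosphatase that carries the Fcgr2b signal, had 1632 with IL-27 and 2142 with vehicle, a difference of -0.39. Ptpn6, the phosphatase SHP-1, differed by -0.71 and the adaptor Dok3 by -0.88. None of these 3 passed the size rule.

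A list of receptors taken to pair with Fcer1g or with the related adaptor DAP12, and DAP12 itself, held both lower and higher genes. Of 16 that reached the level minimum 4 (25.0%) were lower and 2 higher, beside 13.2% and 1.52% of all genes at that minimum. With the level trend removed 1 of the 16 was lower. Over these 16 the median was -0.37 and -0.28 over all 21 measured. Pilrb1, an activating paired receptor, had 352 with IL-27 and 1537 with vehicle (4.37-fold lower). Cd300ld, Cd300c2 and Clec4n, which encodes the fungal sensor Dectin-2, were 2.70-fold, 2.70-fold and 2.64-fold lower, and with the level trend removed they were short of 2-fold, at -0.93, -0.93 and -0.95. Csf2rb, the shared beta chain of the IL-3, IL-5 and GM-CSF receptors, was the brightest higher gene, at 4149 with IL-27 and 1657 with vehicle (2.50-fold). Clec4e, which encodes Mincle, a sensor of mycobacterial glycolipid that also pairs with Fcer1g, was at least 1.70-fold higher against the olfactory limit and was short of 2-fold with the level trend removed, at 0.94. Tyrobp, which encodes DAP12 itself, had 1878 with IL-27 and 2429 with vehicle, a difference of -0.37.

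A further list held other receptors for immunoglobulin together with related receptors of B and myeloid cells. Of 9 that reached the level minimum 4 (44.4%) were lower and 0 higher, beside 13.2% and 1.52% of all genes at that minimum. With the level trend removed 3 of the 9 were lower. Over these 9 the median was -0.97 and -0.21 over all 16 measured, of which 6 lay under the olfactory limit on both arrays. The lower genes included Fcrl1, an Fc receptor-like gene of B cells (174 with IL-27 and 543 with vehicle, 3.12-fold), Cd22, a B cell lectin for sialic acid (at least 3.05-fold), and Cd300lf, an inhibitory receptor for lipids (3.15-fold), none of which is an established receptor for IgG. The other was Trim21, the cytosolic IgG receptor (153 with IL-27 and 343 with vehicle, 2.24-fold). Trim21 had -0.67 with the level trend removed. Fcer1a and Ms4a2, which together with Fcer1g form the high-affinity IgE receptor, lay under the olfactory limit on both arrays. B2m, the light chain partner of the neonatal receptor and of MHC class I, had 8497 with IL-27 and 7573 with vehicle, a difference of 0.17.

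Genes of complement recognition and of the uptake machinery act beside the IgG receptors on opsonised particles. Of 13 complement and C1q genes at the level minimum 5 (38.5%) were lower, 8 neither and 0 higher, beside 13.2% lower and 1.52% higher of all genes at that minimum. Without the level trend the lower genes of the list numbered 6, beside 5.33% of all genes. The median of the 13 was -0.88, and it was -0.60 over all 18 measured. C1qa, C1qb and C1qc, the chains of C1q, were 3.30-fold, 2.29-fold and 3.28-fold lower, the uptake receptor Lrp1 was 2.61-fold lower, and Itgam, the alpha chain of complement receptor 3, was at least 2.62-fold lower. Of 25 genes of the NADPH oxidase and particle uptake 5 (20%) were lower and 0 higher, beside 13.2% of all genes, and the median was -0.48. With the level trend removed 3 were lower. Myo1f, a myosin, had 419 with IL-27 and 1305 with vehicle (3.11-fold), Was, an actin regulator, was 2.84-fold and Fermt3, which activates integrins, 2.75-fold lower. The GTPase Rac2 was 2.20-fold lower and Pld1 at least 1.28-fold. Fermt3 and Rac2 were short of 2-fold with the level trend removed, at -0.96 and -0.84. Cybb, the catalytic subunit of the oxidase, had 1488 with IL-27 and 2836 with vehicle, a difference of -0.93 that did not pass.

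Of 18 genes that are known to regulate IgG receptor genes 1 (5.56%) was lower and 0 higher. Over all genes at the level minimum 13.2% were lower and 1.52% higher. The median of the 18 was -0.22, beside -0.34 over all genes at that minimum. Interferon-gamma is known to induce Fcgr1 and Fcgr4 in myeloid cells. Tgfbr2, a chain of the TGF-beta receptor, was the lower gene, at 392 with IL-27 and 931 with vehicle (2.37-fold, and -0.81 on the log2 scale with the trend removed). Ifngr1, the ligand-binding chain of the interferon-gamma receptor, differed by -0.81, Klf4 by -0.92 and Il10ra by -0.86. Spi1 had 2481 with IL-27 and 2152 with vehicle, a difference of 0.21, and Irf8, a partner of PU.1, differed by -0.67. Of 25 interferon-stimulated genes that reached the level minimum, 12 (48%) were lower, 12 were neither and 1, Oasl1 (2.76-fold), was higher. With the level trend removed 9 of these genes were lower. Their median was -0.89; Ddx58 and Ifit3 were 3.92-fold and 3.64-fold lower.

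Macrophages and monocytes carry all of these receptors. All 18 measured macrophage and monocyte markers reached the level minimum. By the size rule 11 (61.1%) were lower, 7 neither and 0 higher. Of all genes at that minimum 13.2% were lower and 1.52% higher. The median of the markers was -1.29. With the level trend removed, where 5.33% of all genes at the minimum were lower, 9 of the markers were lower. Their summed intensity was 17983 on the IL-27 array and 36418 on the vehicle array, and 0 of the 18 lay under the olfactory limit on both arrays. Cd163, which clears haemoglobin, was at least 3.59-fold, Slc40a1, the iron exporter, 4.12-fold and Mertk, an uptake receptor for dying cells, 3.86-fold lower. Adgre1, which encodes F4/80, had 786 with IL-27 and 2287 with vehicle, and Csf1r had 1395 with IL-27 and 3287 with vehicle. All 18 markers were below 0, but not by like amounts. The smallest differences were those of Hmox1 (-0.16), Lyz2 (-0.42), Cx3cr1 (-0.49) and Timd4 (-0.52), beside a median of -0.34 over all genes at that minimum. The part of macrophage RNA in the lower receptor values was not tested.

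DC markers lay above the olfactory limit on both arrays, except Clec4a4, which was under it with IL-27 at an intensity of 66.1. All 19 reached the level minimum, 10 (52.6%) were lower and 0 higher, beside 13.2% and 1.52% of all genes at that minimum. The list had a median of -1.08 and a summed intensity of 27550 with IL-27 and 38547 with vehicle. Cd209a, Kmo and Cd8a were 6.61-fold, 4.92-fold and 2.88-fold lower and Clec4a4 at least 2.29-fold, while Itgax, which encodes CD11c, had 1829 with IL-27 and 3371 with vehicle (-0.88). The markers did not all move this way. Of the 19, 15 were below 0, and Irf4 (0.40), Ccr7 (0.39), Cd83 (0.19) and H2-Aa (0.12) were above it. With the level trend removed 7 of the 19 were lower. Plasmacytoid DC markers had 0 of 6 lower and 0 higher, with a median of -0.59 over these 6 and -0.49 over 7 measured, and Ccr9 and Tcf4 differed by -0.88 and -0.83.

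B cells carry Fcgr2b as their IgG receptor, and their markers did not move as 1 group. By the size rule 3 of 11 measured (27.3%) were lower and 0 higher, beside 13.2% and 1.52% of all genes at the level minimum. The median was -0.49, and the list had a summed intensity of 1822 with IL-27 and 3053 with vehicle. Fcrl1, Cd22 and Ms4a1 (2.15-fold, and -0.58 on the log2 scale with the level trend removed) were lower, Blnk differed by -0.77, and Cd79a, a chain of the B cell antigen receptor, had 180.1 with IL-27 and 185 with vehicle. The difference of Cd79a was -0.04, and it was 0.22 after quantile normalization and 0.37 with the level trend removed. Their part in the lower Fcgr2b value was not tested.

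NK cells carry Fcgr3. At the level minimum 13.2% of all genes were lower and 1.52% higher. Of 5 NK cell markers over that minimum Klrk1 and Klrd1 were lower (2.12-fold and 2.06-fold) and 0 were higher. Both were short of 2-fold after quantile normalization (-0.87 and -0.71), and both also occur on other lymphocytes. The other 5 of 10 measured, among them the defining marker Ncr1, lay under the olfactory limit on both arrays, and the median was 0.12 over the 5 at the minimum and 0.16 over all 10. T cell markers had 0 of 4 lower and 0 higher, with a median of 0.28 over these 4 and 0.14 over 8 measured, 4 under the limit on both arrays and Cd3e at 114 with IL-27 and 82.0 with vehicle. Of 13 neutrophil, mast cell and basophil markers 9 lay under the limit on both arrays, and the median over all 13 was 0.30. Of the 3 that reached the level minimum, whose median was -0.36, 1 was lower, Csf3r (at least 2.12-fold). Cytosolic ribosomal proteins, which every cell makes, had 0 of 18 lower and 0 higher, with a median of -0.19. The most negative of them was Rps9, at -0.71.

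**Figure D5:**
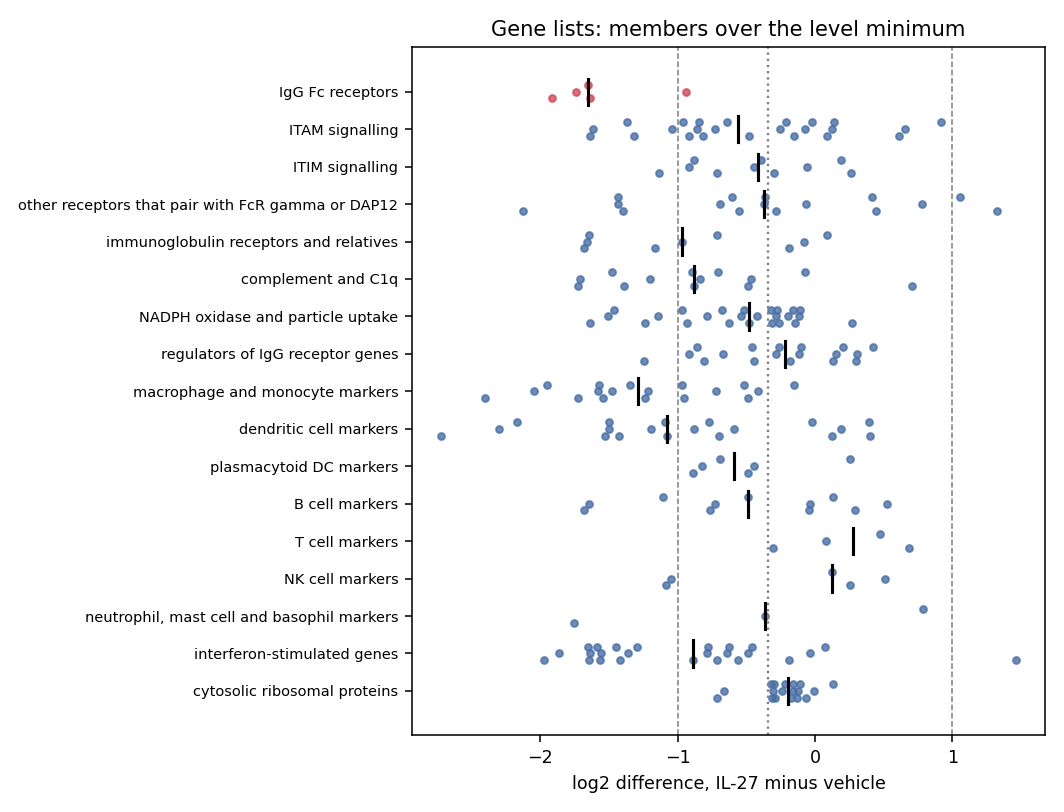
The log2 difference (IL-27 minus vehicle) of the genes over the level minimum in each list, 1 point per gene, with a black bar at the median of those points, dashed lines at 2-fold and a dotted line at the median of all genes over the minimum (-0.34). The 5 Fc receptor genes are in red at the top, with 4 left of the 2-fold line; macrophage and DC markers reach as far to the left, and ribosomal protein genes lie to the right of it.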

How the data were processed

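Total RNA of 2 samples was fragmented and labelled with biotin (WT Terminal Labeling Kit, Affymetrix), per the labels' protocols, and read on 1 array each. The deposited table gives 1 linear intensity for each of 28815 probe sets, and how the authors made it (background correction, summarization, normalization) is not given in the sources used here. The submitters' processing notes name build mm8. GEO's platform annotation gave 21780 probe sets 1 gene and 1605 several, and 5430 are unnamed here. RefSeq held the gene ID of 21689 of the probe sets with 1 gene, changing 0 symbols. A gene was read from its probe set with the highest mean log2, with no pseudocount. Lists are described by counts and medians, and some share genes (C1qa, Itgam, Cd22, Fcrl1). The members and lists were chosen with earlier results of these data known, and the promoter patterns, olfactory limit and chromosome window after values were seen. Named genes are the members, up to 4 of each list by absolute difference among those at the level minimum, fixed markers and signalling partners, and further examples chosen after their values were seen. The number of arrays limits precision. Steps were tested on simulated data with Python 3.11.15, pandas 2.3.3 and statsmodels 0.14.6 (lowess span 0.3). Alternatives were quantile normalization, median centring, trend removal, an offset of 16, probe set means, other level filters, a 1.5-fold rule, 500 nearest genes, a median for the activating receptors and, added after seeing the data, the olfactory limit as a floor.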

Additional observations from a re-analysis of the deposited data

How the results depend on the processing

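No paired analysis was possible because each group had 1 array. Fcgr1, Fcgr3, Fcgr4 and Fcgr2b stayed lower by at least 2-fold under quantile normalization, median centring, trend removal and an offset of 16, with ranges of -1.74 to -1.17, -1.75 to -1.13, -2.01 to -1.39 and -1.84 to -1.21. Of the members, the olfactory floor moved only Fcgr1 (-1.52), and a minimum on both arrays ended no member call. Probe set means, no minimum and the 1.5-fold rule could not end these calls by construction. Fcer1g ran from -1.04 to -0.79 and passed the size rule with median centring (-1.04) and with the 1.5-fold rule (-0.94), in which the count of lower members was 5 in place of 4. Activating minus inhibitory moved by less than 0.1. Of the genes of the other lists, 60 were lower as deposited, 39 with the level trend removed and 104 with the 1.5-fold rule. The other settings gave 49 to 68. Over all genes 1468 were lower and 169 higher as deposited, 907 and 235 after quantile normalization, 594 and 341 with the trend removed, and 3753 and 653 with the 1.5-fold rule. The median over genes above the minimum moved with the trend removed to 0.00, against -0.34. Turns of sign were checked for the members and most of the other named genes, not for all genes of the lists. Among those checked, the differences that turned were those of Cd79a (0.22 after quantile normalization, 0.37 with the trend removed) and Fcrlb (0.37 with the olfactory limit as floor). The cause was not tested. With 500 in place of 1000 nearest genes, members lay -0.72 to -1.38 from their median. The IL-27 intensities of the 4 IgG-binding receptors, at 0.92 (Fcgr1) to 1.38 (Fcgr4) times the olfactory limit, bound what their folds can show.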
